A study of Mus musculus with 6 samples.

Results

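The mouse mitochondrial genome encodes 7 subunits of respiratory complex I, the NADH dehydrogenase, and 1 subunit of complex III, cytochrome b. The mRNAs of these 8 genes are described here in fetal heart as recovered by an antibody to N6-methyladenosine (m6A), a methyl mark on RNA. They were mt-Nd1 (ENSMUSG00000064341), mt-Nd2 (ENSMUSG00000064345), mt-Nd3 (ENSMUSG00000064360), mt-Nd4l (ENSMUSG00000065947), mt-Nd4 (ENSMUSG00000064363), mt-Nd5 (ENSMUSG00000064367), mt-Nd6 (ENSMUSG00000064368) and mt-Cytb (ENSMUSG00000064370). They were taken by these Ensembl gene IDs out of 48505 IDs in the deposited values. The rule that names them uses no measured value. For 8 of 8 genes the RefSeq length of the named gene ended within 50 nucleotides of the start of the last window listed under its ID.

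Complex I takes electrons from NADH and passes them to ubiquinone while it pumps protons across the inner mitochondrial membrane, and complex III passes the electrons on to cytochrome c. The mitochondrially encoded subunits lie in the membrane part of each complex, and most other subunits are made from nuclear genes and imported. Mitochondrial mRNAs are cut from long transcripts inside the organelle and are very abundant in heart, which depends on oxidative metabolism. The main m6A writing complex, METTL3 with METTL14, acts on transcripts in the nucleus, and mitochondrial mRNAs lie outside that place of action.

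RNA fragments bound by the antibody, the immunoprecipitate (IP), were sequenced in 6 libraries of fetal heart from the wild-type mouse strain FVB/NJ. In the nano-TiO2 group (3 libraries), dams aged 10 weeks breathed an aerosol of engineered titanium dioxide nanoparticles in a whole-body chamber, at a target of 12 mg/m3 for 360 minutes a day. In the sham group (3 libraries), dams of the same strain and age breathed filtered room air. In both, exposure took 6 non-consecutive days within 8 days from gestational day 5, and the fetal hearts were taken on gestational day 15. Each library was a pool of hearts, with males and females together. How litters were divided among the pools is not given, so p-values measure only the spread between these 6 samples. Input and IgG libraries are named in the labels and were not analysed here, so IP level is not enrichment over input. Markers of heart or of other tissues could not be checked, because the IDs could not be paired with symbols.

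Recovered reads, summed over windows, numbered 20205024, 24031476 and 28251706 in nano-TiO2 libraries and 30862986, 31523675 and 22151447 in sham libraries. The deposited normalized values are these reads divided by 1 size factor per library. Their totals did not overlap, at 22545948, 19886237 and 22752137 in nano-TiO2 libraries and 27762102, 34527421 and 29937922 in sham libraries, so levels on this scale are also given below at equal totals. The part of this difference in the results was not tested. In bulk hearts, fewer cells of a type and less RNA per cell cannot be told apart.

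The 8 genes took up 295 windows, which mostly start 25 nucleotides apart, and 269 of them held a read. The windows with no read lay at the end of the listed stretch in 7 genes (the last 2 to 4 windows) and at its beginning in mt-Nd6 (the first 5). Reads in the 8 genes together numbered 199432, 140963 and 272741 in nano-TiO2 libraries and 193955, 249995 and 271175 in sham libraries. mt-Nd3 was by far the thinnest, with 667, 234 and 647 reads in nano-TiO2 libraries and 1434, 732 and 1087 in sham libraries. Nuclear copies of parts of mitochondrial DNA can be nearly identical in sequence, mt-Nd4l overlaps mt-Nd4, and mt-Nd5 overlaps mt-Nd6 on the other strand. The sources used here do not give the strand setting or how reads with several matches were counted, so the split of reads between such pairs is uncertain.

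Of the 8 mRNAs, mt-Nd3 had a lower IP level in nano-TiO2 hearts than in sham hearts past the test's threshold, and the other 7 had estimates below 0 that did not pass; 43.6% of all genes tested had estimates below 0. The levels below are normalized reads summed over the windows of a gene. Log2 changes are nano-TiO2 over sham on the scale log2(value + 1), from limma across 18566 genes with Benjamini-Hochberg adjustment at 0.05.

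mt-Nd3, a small membrane subunit of complex I, had 744, 194 and 521 normalized reads in nano-TiO2 libraries and 1289.92, 802 and 1469 in sham libraries. The groups did not overlap. The means were 486 ± 277 in nano-TiO2 hearts and 1187 ± 345 in sham hearts (SD, n = 3 each), and the log2 change was -1.44 ± 0.45 (SE; limma adjusted p = 0.033, 95% interval -2.46 to -0.43). Among all genes tested 12% were called lower, and in 18.5% every nano-TiO2 library was below every sham library. The change stayed below 0 in 19 of 19 alternative settings and passed the threshold in 11. It missed it at equal library totals (log2 -0.95, limma adjusted p = 0.071), with DESeq2 (-1.39, adjusted p = 0.072), and in limma without nano-TiO2 replicate 3 (-1.60, adjusted p = 0.056), sham replicate 1 (-1.36, adjusted p = 0.097) or sham replicate 3 (-1.27, adjusted p = 0.087), and it shrank to -0.88 without nano-TiO2 replicate 2.

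mt-Nd1 encodes a core subunit of the membrane arm that lines the ubiquinone site. It had 49312, 21239.6 and 45339.7 normalized reads in nano-TiO2 libraries and 46171, 61183 and 90299.8 in sham libraries. The groups overlapped, because nano-TiO2 replicate 1 lay above sham replicate 1. The log2 change was -0.81 ± 0.34 (SE; limma adjusted p = 0.099, 95% interval -1.59 to -0.03). Without nano-TiO2 replicate 2 it was -0.42. DESeq2 on the recovered reads called this gene, at a log2 change of -0.88 and an adjusted p of 0.033.

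mt-Nd2, mt-Nd4 and mt-Nd5 encode the large antiporter-like subunits of the proton-pumping arm. mt-Nd2 had 17689.7, 8578 and 20703 normalized reads in nano-TiO2 libraries and 16316.5, 27673.5 and 31091.5 in sham libraries, with a log2 change of -0.72 ± 0.35 (SE; limma adjusted p = 0.14, 95% interval -1.51 to 0.07). mt-Nd4 had 38483, 21804 and 42126 in nano-TiO2 libraries and 29721, 50578 and 60252 in sham libraries, with a log2 change of -0.45 ± 0.31 (SE; limma adjusted p = 0.29, 95% interval -1.16 to 0.26). mt-Nd5 had 18843.5, 10257 and 21039 in nano-TiO2 libraries and 12460.3, 24407 and 29733 in sham libraries, with a log2 change of -0.38 ± 0.36 (SE; limma adjusted p = 0.43, 95% interval -1.19 to 0.42). In all 3, sham replicate 1 lay below nano-TiO2 replicates 1 and 3, so the groups overlapped.

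mt-Nd4l, the shortest of the 7 complex I subunits, had 3806, 2051 and 3773 normalized reads in nano-TiO2 libraries and 3218, 4530.1 and 6810.26 in sham libraries. Its log2 change was -0.58 ± 0.31 (SE; limma adjusted p = 0.18, 95% interval -1.29 to 0.12). mt-Nd6, the only one of the 8 encoded on the other strand, had 5494, 3019 and 6911 in nano-TiO2 libraries and 3863, 7820.34 and 9392 in sham libraries, with a log2 change of -0.44 ± 0.37 (SE; limma adjusted p = 0.40, 95% interval -1.28 to 0.41). In both genes sham replicate 1 lay below nano-TiO2 replicates 1 and 3, so the groups overlapped.

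mt-Cytb, the haem-bearing core of complex III, had 88165, 49506.5 and 79237 normalized reads in nano-TiO2 libraries and 61428, 96822 and 137449 in sham libraries. The log2 change was -0.41 ± 0.31 (SE; limma adjusted p = 0.33, 95% interval -1.12 to 0.30), and the groups overlapped. Nano-TiO2 replicate 2 was the lowest library and sham replicate 3 the highest for 8 of 8 genes, and the same held for 9.86% of all genes tested.

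**Figure D1:**
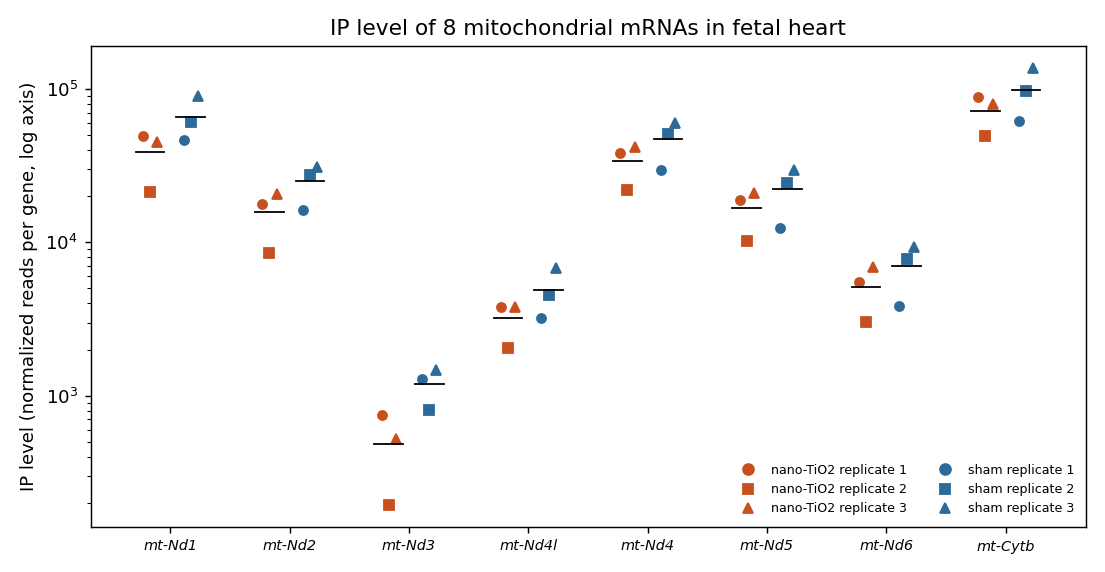
IP level of each of the 8 mitochondrial mRNAs (normalized reads per gene, log axis) in 3 nano-TiO2 and 3 sham libraries, one point per library. mt-Nd3 is the only gene whose nano-TiO2 points, 194 to 744, all lie below its sham points, 802 to 1469.

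As a list, 1 of 8 genes was called lower and 0 of 8 higher, against 12% lower and 24% higher among all genes tested. With an unadjusted limma p under 0.05, 2 of 8 were lower, against 16.5% of all genes. Counted in either direction, 8 of 8 had such a p without sham replicate 1, against 40.4% of all genes. At equal totals 1 had it, against 51.3%, and with the window trend removed 0 had it, against 40.9%. The median log2 change of the 8 was -0.52, against 0.13 over all 18566 genes. At equal library totals the median of the 8 was -0.02, with 4 of 8 estimates above 0, and that of all genes was 0.61. The distance between the 8 and all genes was thus -0.64 on the deposited scale and -0.63 at equal totals. A constant per library shifts all genes alike, so these values had to be nearly equal and are no check of the distance. It was -0.28 without nano-TiO2 replicate 2 and -0.38 without sham replicate 3, and the median of the 8 ran from -0.83 to -0.23 when 1 library was left out. The distance was -0.11 after quantile normalization, with 5 of 8 genes below the median of all genes. The scale also moved the calls over all genes, which were 4450 higher and 2226 lower on the deposited scale and 8005 higher and 169 lower at equal totals.

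The number of windows and the level of a gene moved with these changes. Among the 4937 genes with 11 to 72 windows, the span of the 8 genes, the median log2 change was -0.39, and 29.4% were called lower. Among the 20% of genes with the highest mean level it was -0.27, and 32.5% were called lower. With the trend on window number removed, the median of the 8 differed by -0.29 from that of all genes, 2 of 8 estimates were above 0, and mt-Nd3 no longer passed (log2 -0.74, limma adjusted p = 0.23).

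The share of a library's reads that lay in the 8 genes did not differ beyond the spread. It was 0.987%, 0.587% and 0.965% in nano-TiO2 libraries and 0.628%, 0.793% and 1.22% in sham libraries. The 95% Wilson intervals treat reads as separate molecules, which PCR copies and reads counted in several windows, if any, are not, and cover counting error only. They ran from 0.584% to 0.590% in nano-TiO2 replicate 2, the lowest, and from 1.22% to 1.23% in sham replicate 3, the highest. The means were 0.846% ± 0.225 in nano-TiO2 hearts and 0.882% ± 0.308 in sham hearts (SD, n = 3 each; two-sided exact permutation p = 0.9, where 0.1 is the smallest possible). Leaving out the 4 most abundant genes from the totals gave 0.992% ± 0.308 in nano-TiO2 hearts and 1.19% ± 0.369 in sham hearts (exact permutation p = 0.4).

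Within the reads of the 8 genes, mt-Nd1 held a smaller part in every nano-TiO2 library than in any sham library. It made up 22.2%, 18.2% and 20.6% of them in nano-TiO2 libraries and 26.5%, 22.3% and 24.6% in sham libraries. The difference of means was -4.15 percentage points (two-sided exact permutation p = 0.1, the smallest possible, and 0.51 after adjustment over the 17 per-library values compared). In the adjusted values described further on, mt-Nd1 overlapped, with 23.4%, 20.2% and 20.7% in nano-TiO2 libraries and 25.4%, 20.8% and 24.9% in sham libraries, a difference of -2.26 points. mt-Cytb held the largest part in every library, at 39.6%, 42.4% and 36.1% in nano-TiO2 libraries and 35.2%, 35.4% and 37.5% in sham libraries, with overlapping groups.

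The other 6 genes overlapped between groups. mt-Nd4 averaged 18.4% ± 0.98 in nano-TiO2 hearts and 17.3% ± 1.04 in sham hearts, and mt-Nd5 averaged 8.95% ± 0.57 in nano-TiO2 hearts and 8.06% ± 0.89 in sham hearts (SD, n = 3 each). mt-Nd2 averaged 8.24% ± 1.07 in nano-TiO2 hearts and 9.31% ± 0.81 in sham hearts. mt-Nd3 averaged 0.246% ± 0.085 in nano-TiO2 hearts and 0.478% ± 0.233 in sham hearts, where sham replicate 1 alone reached 0.739%. mt-Nd6 and mt-Nd4l stayed between 1.65% and 3.15% in all 6 libraries.

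**Figure D2:**
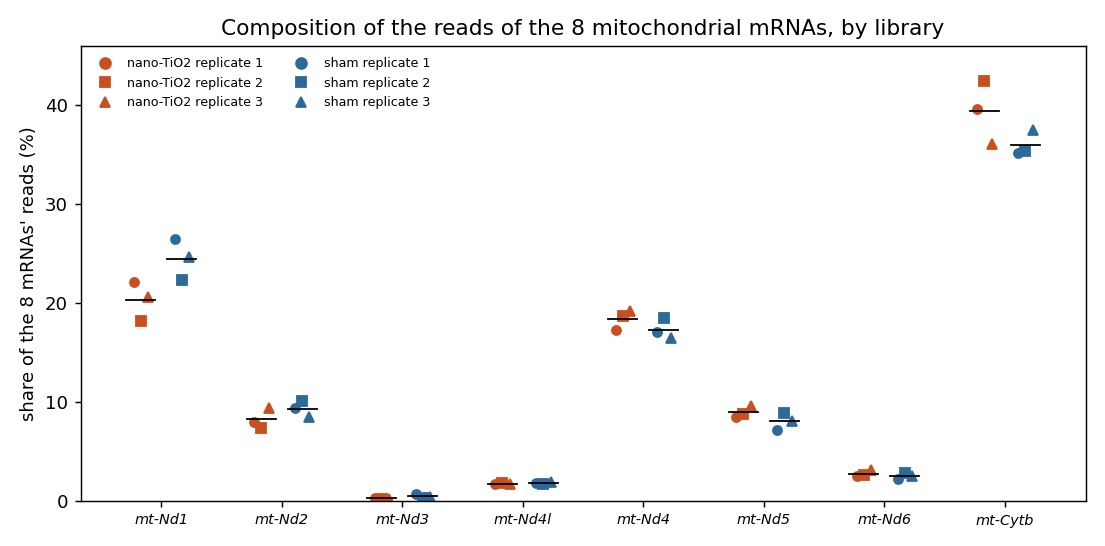
Share of each gene in the reads of the 8 mitochondrial mRNAs (percent), with one point for each of the 3 nano-TiO2 and 3 sham libraries. mt-Nd1 lies at 18.2% to 22.2% in nano-TiO2 libraries and at 22.3% to 26.5% in sham libraries, and the other 7 genes overlap.

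Levels can be set between genes only per length, here as mean normalized reads per window over the windows with a mean of at least 10. mt-Cytb was highest, with 1763 ± 494 in nano-TiO2 hearts and 2404 ± 928 in sham hearts (SD, n = 3 each). mt-Nd1 followed with 1170.3 ± 460.2 in nano-TiO2 hearts and 1996 ± 679.7 in sham hearts, and mt-Nd4 with 683 ± 217 in nano-TiO2 hearts and 937 ± 312 in sham hearts. mt-Nd2, mt-Nd4l, mt-Nd6 and mt-Nd5 then averaged 242 to 435 in nano-TiO2 hearts and 322 to 695 in sham hearts. Neighbours among mt-Nd2, mt-Nd4l, mt-Nd6 and mt-Nd5 differed by less than the larger SD of the pair, but that SD includes the swing that genes of a library share. Within every library mt-Nd4l lay above mt-Nd6, and mt-Nd6 above mt-Nd5. The order of mt-Nd2 and mt-Nd4l turned in nano-TiO2 replicate 2, with 238 for mt-Nd2 and 256 for mt-Nd4l.

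mt-Nd3 was lowest by a wide margin, at 92.5, 24.0 and 64.6 normalized reads per window in nano-TiO2 libraries and 161, 99.9 and 183 in sham libraries. It lies just before mt-Nd4l in the mitochondrial genome, and per window it had 0.142 ± 0.051 times the level of mt-Nd4l in nano-TiO2 hearts and 0.264 ± 0.119 times in sham hearts (SD, n = 3 each). These ratios overlapped, since nano-TiO2 replicate 1 had 0.194 and sham replicate 2 had 0.176. The ratio of mt-Nd6 to mt-Nd5, neighbours that overlap on opposite strands, stayed between 1.341 and 1.511 in all 6 libraries.

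Across windows, which are not independent, the profiles of a nano-TiO2 and a sham library correlated at r of 0.922 or more in 7 of the 8 genes, and at 0.305 to 0.973 over the 8 windows of mt-Nd3. In mt-Nd1, mt-Nd4, mt-Nd4l and mt-Cytb the same window was the highest in all 6 libraries. For mt-Cytb this was the window starting at nucleotide 601, with 2792 ± 782 normalized reads in nano-TiO2 hearts and 3852 ± 1476 in sham hearts (SD, n = 3 each). For mt-Nd4 it was the one at 1051, with 1664 ± 637 in nano-TiO2 hearts and 2372 ± 750.1 in sham hearts, and for mt-Nd1 the one at 726, with 2115 ± 928 in nano-TiO2 hearts and 3836 ± 1332 in sham hearts.

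Several mRNAs carried more signal toward the end of their listed windows. The last 25% of the windows of mt-Nd2 with a mean of at least 10 had 3.66 ± 0.50 times the mean signal of the first 25% in nano-TiO2 hearts and 4.30 ± 0.13 times in sham hearts (SD, n = 3 each). For mt-Nd5 the ratio was 2.89 ± 0.16 in nano-TiO2 hearts and 2.59 ± 0.30 in sham hearts, and for mt-Nd4 it was 2.36 ± 0.34 in nano-TiO2 hearts and 2.68 ± 0.24 in sham hearts. mt-Nd1 had 1.83 ± 0.27 in nano-TiO2 hearts and 2.16 ± 0.07 in sham hearts. The profiles of mt-Cytb and mt-Nd4l were flatter, with ratios of 1.15 to 1.48 in the 6 libraries, and that of mt-Nd6 ran the other way, at 0.675 to 0.802. Whether the windows of mt-Nd6, encoded on the other strand, are listed in the direction of its transcript is not given.

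The share of reads in the last 50% of these windows gave no overlap for a pair of genes, in opposite directions. Among 5981 genes with at least 8 such windows, all nano-TiO2 libraries lay above all sham libraries in 5.0% and below them in 5.35%, and of the 8 genes 1 did each. mt-Nd1 had 59.5%, 56.5% and 61.0% there in nano-TiO2 libraries and 61.6%, 62.6% and 61.5% in sham libraries. mt-Nd5 had 62.9%, 65.3% and 63.6% in nano-TiO2 libraries and 59.6%, 62.7% and 60.6% in sham libraries. Each had a two-sided exact permutation p of 0.1, the smallest possible, and 0.51 after adjustment over the 17 per-library values. The other 6 genes overlapped.

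In mt-Nd4 the signal opened high and then dipped. Its first 3 windows averaged 635 ± 218 normalized reads per window in nano-TiO2 hearts and 887 ± 306 in sham hearts (SD, n = 3 each). The next 4 windows averaged 264 ± 59 in nano-TiO2 hearts and 336 ± 122 in sham hearts. The first stretch was 1.96 to 2.82 times the second in the 6 libraries. The end of mt-Nd4l overlaps the start of mt-Nd4, and the last 3 listed windows of mt-Nd4l held no read in any library. How reads that cross the overlap were counted is not given.

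**Figure D3:**
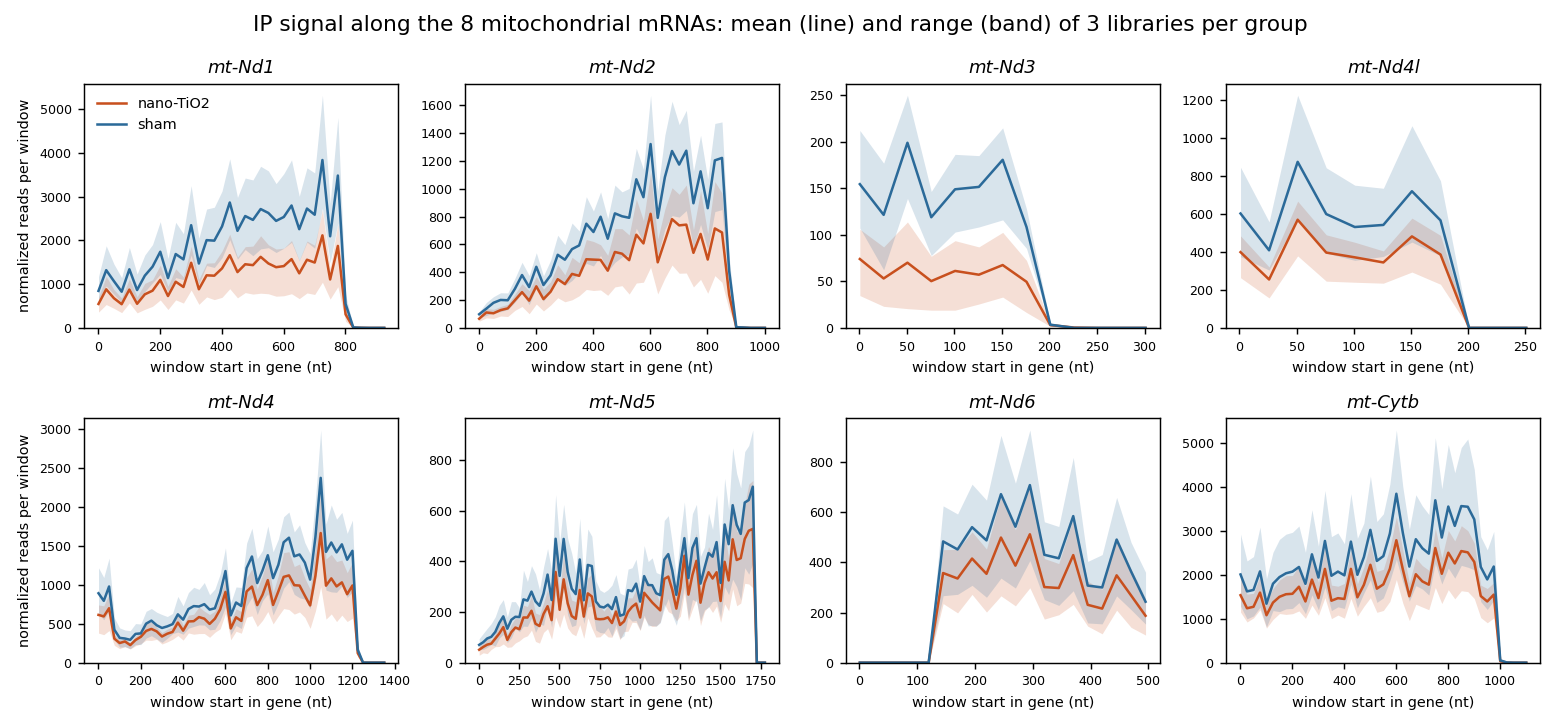
Normalized reads per window along the 8 mitochondrial mRNAs, against the window's start in the gene (nucleotides), as mean (line) and range (band) of 3 nano-TiO2 and 3 sham libraries. The lines of both groups share their peaks, such as the one at 601 in mt-Cytb and the one at 1051 in mt-Nd4, and the sham line lies higher.

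Window by window, 260 windows of the 8 genes were tested with limma among 250317, and 260 of 260 had a log2 change below 0, against 59% of all windows tested. This count belongs to the deposited scale and follows the estimates of the 8 genes. Windows were not tested at equal library totals, where 4 of 8 gene estimates were above 0. Of the 260 windows, 8 were called lower (3.08%), against 7.32% of all windows tested, and 0 higher, against 3.88%. The order of these shares depended on the setting. With the floor at a mean of at least 1, 25 windows of the 8 genes were called lower (9.4%), against 1.29% of all windows, and with the replicate block 43 were (16.5%), against 8.54%. All nano-TiO2 libraries lay below all sham libraries in 10 of the 260, against 19.7% of all windows. The called windows were 7 of the 8 tested in mt-Nd3, with log2 changes between -1.75 and -1.14, and 1 of 33 in mt-Nd1, the window starting at nucleotide 751 (log2 -0.94 ± 0.28 SE, limma adjusted p = 0.040).

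The strongest fall in mt-Nd3 was at the window starting at 51, with 114, 20.7 and 75.7 normalized reads in nano-TiO2 libraries and 208, 139 and 250.0 in sham libraries (log2 -1.75 ± 0.42 SE, limma adjusted p = 0.015). Windows of a gene share the swing between libraries and may share fragments, so the 7 are not separate evidence. A change of shape was tested as each window's change against the rest of its gene (limma diffSplice). In this test 0 of 260 windows passed, against 0.0465% of 249423. Of the 260, 0 had an unadjusted p under 0.05, against 1.85% higher and 1.41% lower over all windows. The test's error is pooled over the windows of a gene, which share the swing between libraries. Passing none therefore does not show that the shapes stayed the same.

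The second deposited table, of adjusted values, gave another picture. Its values equal the normalized ones divided by 1 factor for each gene and library, rounded, and what the factor was made from is not stated. In limma 0 of 8 genes passed, against 0% of 19361 genes in either direction. Unadjusted p-values under 0.05 were found for 3 of 8 genes, all higher in nano-TiO2, against 16.5% of all genes higher and 2.01% lower. With TMM scaling 0 of 8 had one, and the estimates of these 3 genes were 0.08 (mt-Nd4), 0.06 (mt-Cytb) and 0.05 (mt-Nd4l). In 2 of 8 every nano-TiO2 library lay above every sham library, against 19.4% of all genes.

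mt-Nd4 had adjusted values of 42595, 47870 and 44334 in nano-TiO2 libraries and 36840, 36672 and 40035 in sham libraries. The groups did not overlap, at a log2 difference of 0.25 ± 0.07 (SE; 95% interval 0.09 to 0.40, limma adjusted p = 0.18). mt-Cytb had 89875, 98552 and 93347 in nano-TiO2 libraries and 77745, 84683 and 79250.0 in sham libraries, also without overlap, at a log2 difference of 0.22 ± 0.06 (SE; 95% interval 0.08 to 0.36, limma adjusted p = 0.18). mt-Nd4l had 3988, 4406 and 4786 in nano-TiO2 libraries and 3625, 3639 and 4106 in sham libraries, at 0.21 ± 0.09 (SE; limma adjusted p = 0.27). Without sham replicate 2, where 1878 genes passed, mt-Cytb was called higher (log2 0.26, limma adjusted p = 0.036).

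mt-Nd3 kept a negative estimate in the adjusted values, with 851, 429 and 717 in nano-TiO2 libraries and 1212, 470.0 and 1249 in sham libraries. The groups overlapped, with sham replicate 2 below nano-TiO2 replicates 1 and 3, at a log2 difference of -0.48 ± 0.35 (SE; 95% interval -1.26 to 0.30, limma adjusted p = 0.48). Without sham replicate 2 it passed (log2 -0.94, limma adjusted p = 0.043).

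mt-Nd5 had 19696, 21337 and 20764 adjusted units in nano-TiO2 libraries and 18079, 17881 and 19889 in sham libraries, at a log2 difference of 0.15 ± 0.07 (SE; limma adjusted p = 0.29). mt-Nd1, mt-Nd2 and mt-Nd6 had estimates of -0.01, -0.07 and -0.02, with 95% intervals of -0.24 to 0.22, -0.29 to 0.14 and -0.28 to 0.23. The median over the 8 was 0.07, against 0.17 over all genes. The sum of the 8 was 237874, 248541 and 239695 in nano-TiO2 libraries and 219703, 210336 and 234225 in sham libraries, with no overlap. The share of adjusted values in the 8 genes was 0.933% ± 0.025 in nano-TiO2 hearts and 0.837% ± 0.029 in sham hearts (SD, n = 3 each; two-sided exact permutation p = 0.1, the smallest possible, not adjusted). mt-Cytb and mt-Nd4, which did not overlap by themselves, averaged 38.8% and 18.6% of this sum in nano-TiO2 hearts and 36.5% and 17.1% in sham hearts. The sum is thus no separate result about the 8, and it has no counterpart over all genes.

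For 7 of the 8 genes replicates lay closer together after the adjustment. This was not counted over all genes, so it is no trait particular to the 8. The coefficient of variation of the 8 genes was 28.0% to 56.9% in nano-TiO2 hearts and 29.1% to 40.5% in sham hearts for normalized reads. For adjusted values, leaving mt-Nd3 aside, it was 2.49% to 9.09% in nano-TiO2 hearts and 4.53% to 17.5% in sham hearts. For mt-Nd3 it was 32.4% in nano-TiO2 hearts and 45.0% in sham hearts with adjusted values, against 56.9% in nano-TiO2 hearts and 29.1% in sham hearts with normalized reads, so its sham libraries lay farther apart after the adjustment.

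The factor itself, normalized over adjusted, was lower for mt-Nd3 in nano-TiO2 libraries, at 0.874, 0.452 and 0.727, against 1.06, 1.71 and 1.18 in sham libraries. The groups did not overlap, at a log2 change of -0.96 ± 0.31 (SE; limma adjusted p = 0.035). Among 13812 genes with a factor, 19.3% were called lower, and in 29.4% all nano-TiO2 libraries lay below all sham libraries. The call was lost in 8 of 8 alternatives (limma adjusted p = 0.056 to 0.15), among them leaving out any 1 of the 6 libraries.

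The other 7 genes had factor changes between -0.80 (mt-Nd1 and mt-Nd4l) and -0.41 (mt-Nd6) that did not pass, and the median of the 8 was -0.67, against -0.15 over all genes. In nano-TiO2 replicate 2 the 8 factors lay between 0.423 and 0.502, among the lowest 1.90% of the genes with a factor, whose median there was 0.952. In sham replicates 2 and 3 they lay between 1.14 and 1.73, against medians of 1.02 and 1.01. In sham replicate 1 they lay between 0.670 and 1.06, against a median of 1.02. In nano-TiO2 replicate 1 they lay between 0.874 and 0.981, against a median of 0.929, and in nano-TiO2 replicate 3 they spread from 0.727 to 1.15, against 0.956. The 8 factors were thus all low in nano-TiO2 replicate 2 and all above the median in sham replicates 2 and 3. In sham replicate 1 all but that of mt-Nd3 lay below the median. They lay on both sides of it in nano-TiO2 replicates 1 and 3.

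**Figure D4:**
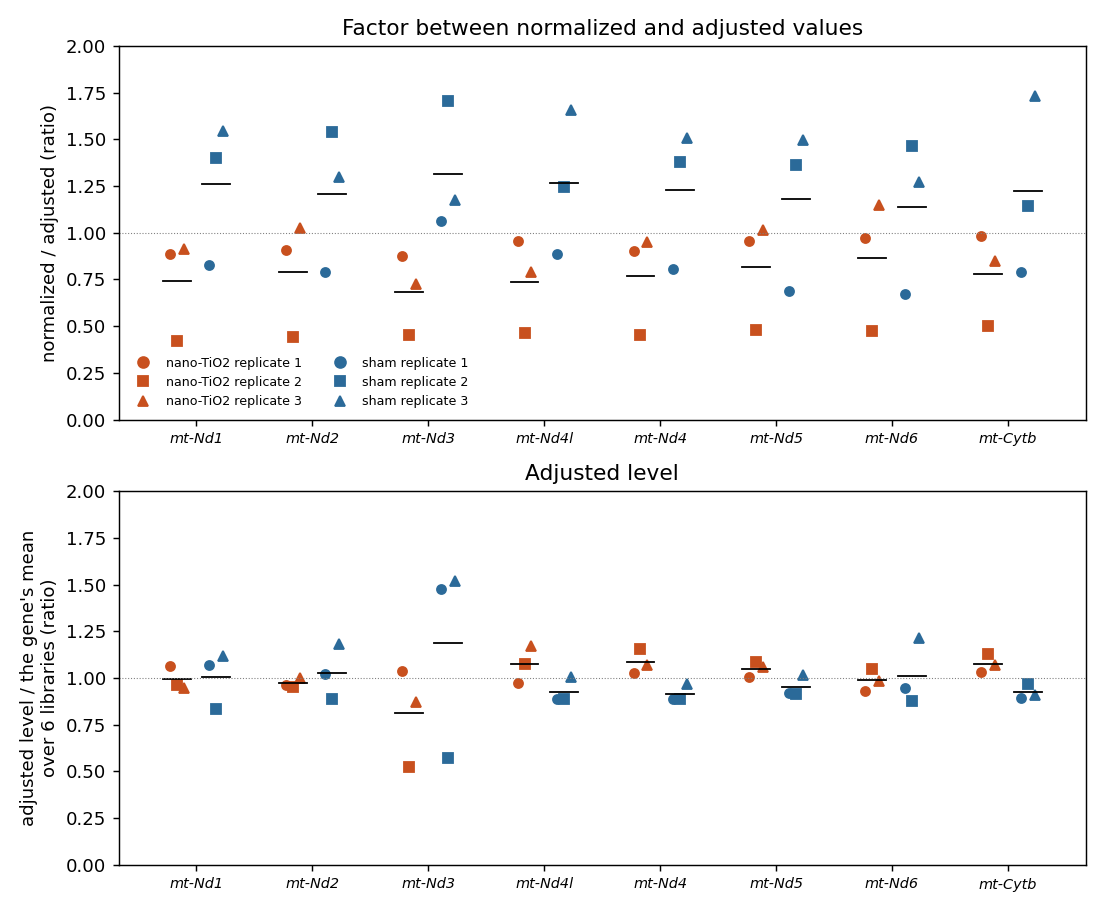
Factor of normalized over adjusted value (ratio) and adjusted value over the gene's mean of 6 libraries (ratio) for the 8 mitochondrial mRNAs, with one point for each of 3 nano-TiO2 and 3 sham libraries. In nano-TiO2 replicate 2 all 8 factors lie between 0.423 and 0.502, and the adjusted values spread less than the factors except for mt-Nd3.

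**Figure D5:**
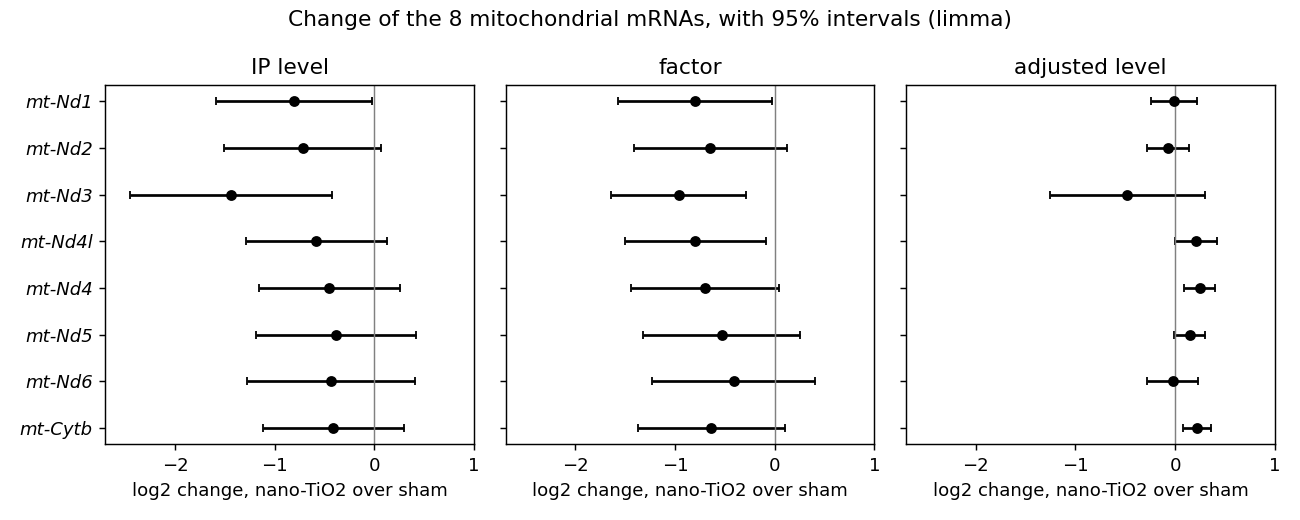
Log2 change, nano-TiO2 over sham, of the 8 mitochondrial mRNAs in IP level, adjusted level and factor, with 95% intervals from limma (3 libraries per group). mt-Nd3 lies farthest below 0 in each, at -1.44 in IP level, -0.48 in adjusted level and -0.96 in the factor.

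Across the 6 libraries, the log2 IP level of 134 of 18566 genes had a Pearson r above 0.95 with that of the sum of the 8, and 7 of these 134 were among the 8 themselves. This is a description of 6 points that share their library scale. Outside the 8, the highest were ENSMUSG00000029499 (r 0.994) and ENSMUSG00000067736 (r 0.992), for which no symbol was at hand. Of the 8 genes themselves, which are part of the sum, mt-Nd4l ranked 2 and mt-Nd4 ranked 6 among all genes, and mt-Nd3, with r 0.757, ranked 1404.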

How the data were processed

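Per the labels, the libraries held anti-m6A IP of 3 µg fragmented total RNA with 5 µg antibody. The submitters' processing notes list DESeq2 1.34.0, HISAT2 2.2.1, Salmon 1.5.2 and the build GRCm39 without their roles. The authors deposited normalized signal per window, here shown to be whole reads over 1 size factor per library (100% of values within 0.0001), and adjusted scores, whole numbers made from them with 1 factor per gene and library (0 exceptions in 162014 pairs). The sources used here do not say how windows were counted, or whether a read was counted in more than 1 window. Sums over windows would hold such a read more than once. Another deposited table was identical to the normalized one and was not used.

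Gene levels are sums of window values. Where the mean over the 6 libraries was 10 or more, log2(value + 1) of genes or windows was fitted with limma 3.58.1 (trend, no covariates; R 4.3.3). Tests were two-sided at 0.05 after Benjamini-Hochberg adjustment over all features. This scale understates changes of low genes. The factor was tested as log2 of normalized over adjusted, in genes where it was recovered to a relative width of 0.2. Since the values are not raw counts, edgeR 4.0.16 and DESeq2 1.42.0 served as alternatives on the recovered reads, and called 6932 and 7316 genes against 6676 by limma. The tests were tried on simulated data. Per-library values were compared by exact permutation (SciPy 1.17.1; Python 3.11.15, NumPy 2.4.6, pandas 2.3.3, statsmodels 0.14.6, matplotlib 3.10.9).

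The 8 genes and the lists were chosen with earlier results of these data known. All 8 genes are named, with the 2 IDs most correlated with their sum. The RefSeq table at hand matched 0 of 48505 IDs, so lists of other mitochondrial transcripts, nuclear complex I and III subunits, mitochondrial RNA handling and cell type markers could not be tested, and no coordinates or sequences are given. Alternatives were other pseudocounts, filters, scalings, the window trend, the count tests, the replicate block and leaving out each library.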

Additional observations from a re-analysis of the deposited data

How the results depend on the processing

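For IP level per gene, the count of 8 genes called was 0 at equal totals, at equal totals outside the 4 most abundant genes, with the window trend removed and with reads outside the 8 genes as the scale (chosen after seeing the data), and was 0 to 1 without 1 library. For adjusted level it was 0 to 2 without 1 library. For the factor it was 0 in all 8 alternatives, centring, replicate block and each left-out library included; over all genes the factor gave 4979 calls, against 1793 with the block, 0 without nano-TiO2 replicate 1 or 3, 1692 without sham replicate 1 and 1428 without sham replicate 2. Called windows of the 8 genes numbered 25 at a mean of at least 1 (1.29% of all windows were called lower), 43 with the replicate block (8.54%) and 3 to 13 without 1 library (2.93% to 5.77%). No window passed against its gene in any of 8 alternatives by limma diffSplice, which cannot show here that shapes stayed the same.

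Without 1 library the IP estimates of the 7 genes not called stayed below 0 and moved widely, for example from -1.04 to -0.42 in mt-Nd1, from -0.76 to -0.07 in mt-Nd5 and from -0.72 to -0.14 in mt-Cytb. Signs of single IP estimates turned, none of them past the threshold: at equal totals and with reads outside the 8 as the scale mt-Nd4 had 0.0449 and 0.0444, mt-Nd5 0.11 in both, mt-Nd6 0.0615 and 0.0609, and mt-Cytb 0.0837 and 0.0832; by quantiles mt-Nd5 and mt-Cytb had 0.14; with the window trend removed mt-Nd4l had 0.19 and mt-Nd6 0.10. In adjusted level, mt-Nd1 (0.0148) and mt-Nd6 (0.00525) turned at equal totals and mt-Nd5 (-0.02) with TMM, and without 1 library mt-Nd1 ranged from -0.14 to 0.0688, mt-Nd2 from -0.18 to 0.0286 and mt-Nd6 from -0.12 to 0.12. The share of the 8 was 0.0958 points higher in nano-TiO2 with adjusted values, and -0.162 to 0.136 without 1 library. Genes not overlapping in composition numbered 2 with adjusted values (mt-Nd2 and mt-Nd4, with mt-Nd1 overlapping) and 1 to 5 without 1 library. With 1 library left out, groups that do not overlap have an exact permutation p of only 0.2. The 8 shares are tied to one another, and this measure has no counterpart over all genes, so these counts are no result about the 8. mt-Nd4l (0.104 points) and mt-Nd6 (-0.286) turned with adjusted values, and mt-Nd6 ranged from -0.0159 to 0.346 without 1 library. For reads in the last 50% of windows (leaving out libraries was added after seeing the data), mt-Nd4l ranged from -0.0783 to 1.19 points and mt-Nd6 from -0.567 to 0.465. The cause of these turns was not tested.

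Same-numbered libraries deviated together with correlations of -0.37, 0.18 and 0.02. Deviations within groups of 3 constrain one another, so these values cannot settle whether the numbers pair the samples. The labels state no pairing. With the replicate block 1 of 8 genes was called lower in IP level (12% of all genes), 0 in adjusted level (0%) and 0 in the factor (3.12%). With 3 libraries a group, an exact test cannot go below 0.1, and mt-Nd3 rests on 234 to 1434 reads a library.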
